A study of Mus musculus with 4 samples.

Results

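The 6 genes described here make, use or carry ketone bodies: Bdh1, Acat1, Oxct1, Slc16a1, Slc16a6 and Slc16a7. They were chosen by name, as members of this pathway, and every probe that carries one of these names, or whose accession belongs to one of these genes, was taken. That gave 14 probes of 41174 and 6 genes of 27670 on the array. Bdh1 had 2 probes, Acat1 a single probe, Oxct1 3, Slc16a1 3, Slc16a6 2 and Slc16a7 3.

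The values come from liver RNA of C57BL/6J mice, an inbred laboratory strain, measured on 4 two-colour arrays of 1 slide. The 4 conditions, each pooled, were food-deprived mothers, control mothers, fetuses of the food-deprivation condition and control fetuses, and each array set a food-deprived pool in one dye against its control pool in the other. No allele or other agent is named for any of them. The dyes were swapped on the second array of each comparison. Pools joined 5 to 10 animals. The labels number the pooled samples 1 and 2 within each comparison, and the design text says that the pooled RNA of each condition was dye-swapped. Since the number goes with the dye orientation, the labels do not settle whether the second array carried the same pools or further ones. The arrays of a comparison were therefore taken as 1 replicate, which leaves no test and no p-value, and the spread between the arrays may be only technical. The duration of food deprivation, the gestational day and the fetal sexes are not stated in the labels. The series carries DOHaD, the link between early life and later disease, in its title.

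Ketone bodies are made in liver mitochondria from the acetyl-CoA of fatty acid oxidation, leave the hepatocyte through carriers of the plasma membrane and are burned in other organs. Acat1 encodes the mitochondrial thiolase that joins or splits acetoacetyl-CoA, a step of both synthesis and use, and Bdh1 encodes the mitochondrial dehydrogenase that interconverts acetoacetate and 3-hydroxybutyrate. Oxct1 encodes the CoA transferase that starts the use of acetoacetate, an enzyme that adult hepatocytes are known to lack or to hold at a low level. Slc16a1 and Slc16a7 encode the proton-coupled carriers MCT1 and MCT2, which move lactate, pyruvate and ketone bodies. Slc16a6 encodes a further carrier of the family, MCT7, which is known in zebrafish to export ketone bodies from the liver.

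The probes of the 3 genes on which the results turn are given here because their probes gave unlike values. Each probe is 60 bases long and is read from the deposited files, with positions in build mm7 per the file headers. The first 30 bases are printed for probes that map to an unbroken stretch, and the whole probe for those that span an intron. No gene model of that build was used here, so which probes lie in coding sequence or in an untranslated region was not determined.
Oxct1, brightest probe, chr15:3981557-3981616, plus strand, first 30 bases: tagtatttctggatttgtgcagccatagac
Oxct1, second probe, spanning chr15:3929522-3956535, plus strand, whole: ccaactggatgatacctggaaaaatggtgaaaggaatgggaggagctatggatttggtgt
Oxct1, dimmest probe, spanning chr15:3928818-3929481, plus strand, whole: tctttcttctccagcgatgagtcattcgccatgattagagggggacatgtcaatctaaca
Slc16a6, brightest probe, chr11:109561785-109561844, minus strand, first 30 bases: ctactatattataaagtgacatccagccca
Slc16a6, second probe, chr11:109560098-109560156, minus strand, first 30 bases: ttgtactacgaatgttcgagacgatttaat
Slc16a7, brightest probe, chr10:124720966-124721025, minus strand, first 30 bases: tgctcatctgcgcacctgagttgtgatgaa
Slc16a7, second probe, chr10:124719758-124719817, minus strand, first 30 bases: gctcattttccaaacctaaagtgtctagaa
Slc16a7, dimmest probe, chr10:124715569-124715628, minus strand, first 30 bases: gccacattgtattgaattacatttgagtaa
The second Slc16a6 probe and the second and dimmest Slc16a7 probes lie downstream of the brightest probe along the transcript. The brightest Oxct1 probe also lies downstream of the other probes of its gene.

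Depending on array and dye, 53.2% to 69.7% of gene spots were bright enough to be called well above background, and none was saturated. All 11 hepatocyte markers on the array, among them albumin and transferrin, were well above background in every pool. The SD per array of a gene's log2 ratio, taken from the difference between the arrays, came to 0.16 in maternal and 0.15 in fetal liver. The probe with the highest mean signal stood for a gene, and all 6 genes were well above background on it in all pools and on all arrays. The call rule asked for a mean change of 2-fold or more, with 1.5-fold or more in that direction on the first and on the second array, and "rose", "fell", "higher than" and "lower than" of a call refer to that rule. Responses are given as log2 of the food-deprived over the control signal, and intensities are normalised values that compare pools for 1 probe, not probes with each other. Where pools are said to overlap or not, their intensities are compared across arrays and dyes, while the log2 ratios compare within an array. The share of all genes without such overlap was not counted, so no response is read from it.

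In the maternal liver 1 of the 6 genes was called, Slc16a6, which fell 2.05-fold. In the fetal liver none was called. The rule called 3.5% of 15678 measured genes in the mother (1.57% higher and 1.93% lower) and 0.755% of 17473 in the fetus (0.481% higher and 0.275% lower). The median response of the 6 genes was 0.07 in the mother and -0.02 in the fetus, against -0.01 and 0.00 over all measured genes. The level of Oxct1 was lower in maternal than in fetal liver and that of Slc16a7 was higher, in food-deprived and in control pools alike.

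**Figure D1:**
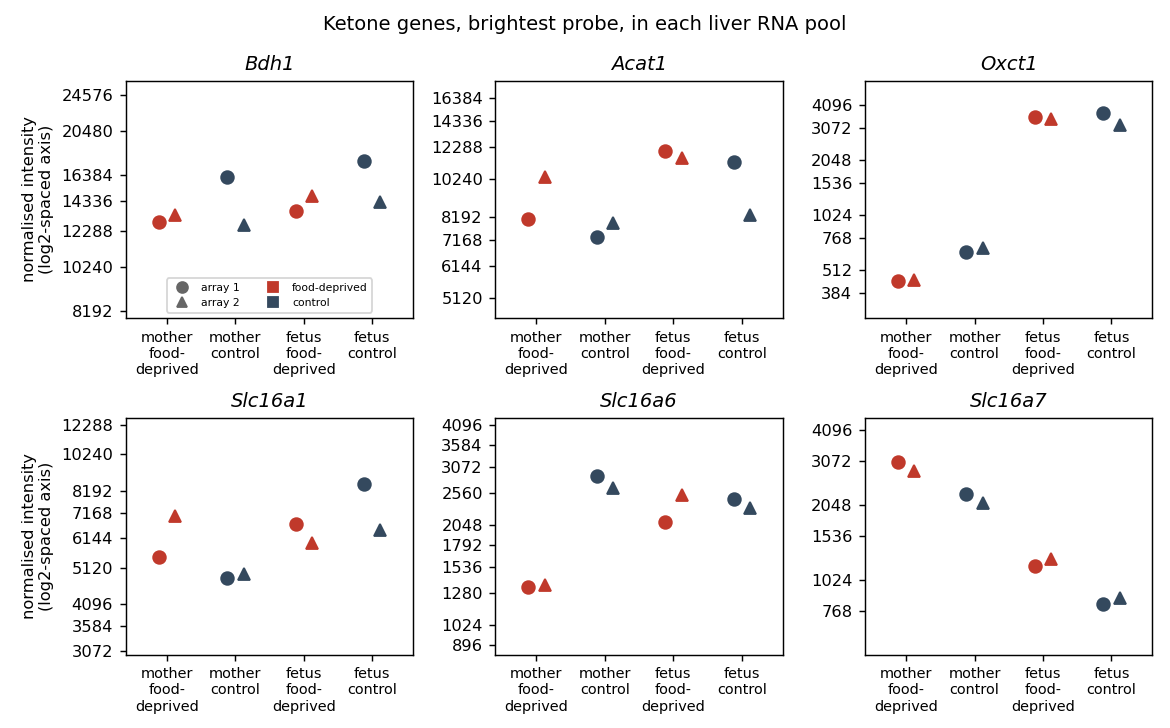
Normalised intensity of the brightest probe of each gene (log2-spaced axis, a different range in each panel) in the 4 liver RNA pools, with circles for the first and triangles for the second array. Oxct1 lies between 446 and 675 in mothers and between 3190 and 3704 in fetuses, and Slc16a6 is lowest in food-deprived mothers, at 1338 and 1359.

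Neither Bdh1 nor Acat1 was called. Bdh1 had intensities of 12885 and 13324 in food-deprived mothers, against 16227 and 12676 in control mothers. In fetuses it had 13659 and 14713 in the food-deprived pool, against 17556 and 14258 in the control pool. The maternal values overlapped, as did the fetal ones. The maternal log2 ratios of Bdh1 were -0.33 and 0.07 on the first and the second array, and the fetal ones -0.36 and 0.05, so the sign turned with the dye orientation in both. The difference between the arrays was 0.40 in the mother and 0.41 in the fetus. Its second probe gave steadier ratios, -0.25 and -0.27 in the mother and -0.23 and -0.25 in the fetus, all below 0, and its mean changes were within 1.20-fold.

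Acat1 had intensities of 8081 and 10323 in food-deprived mothers, against 7283 and 7890 in control mothers. In fetuses it had 12038 and 11556 in the food-deprived pool, against 11282 and 8264 in the control pool. In both cases the food-deprived values lay above the control values without overlap, by small amounts. The log2 ratios were 0.15 and 0.39 in the mother (mean 0.27) and 0.09 and 0.48 in the fetus (mean 0.29). Changes at least as large were found in 29.2% of measured genes in the mother and in 12.7% in the fetus, and Acat1 was not called in either.

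Oxct1, the enzyme of ketone body use, had intensities of 446 and 450 in food-deprived mothers, against 637 and 675 in control mothers. In fetuses the values were 3519 and 3422 in the food-deprived pool, against 3704 and 3190 in the control pool. The maternal pools did not overlap and the fetal pools did. The maternal log2 ratios were -0.52 and -0.58 (mean -0.55), short of the rule, with changes as large in 11.1% of measured genes. The fetal ratios were -0.07 and 0.10. The maternal response minus the fetal one was -0.44 on the first arrays and -0.69 on the second.

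The other Oxct1 probes gave smaller maternal ratios, with -0.24 and -0.13 at the second probe and -0.27 and -0.05 at the dimmest. All were below 0. With the scanner software's own background-subtracted ratios, the maternal means of the 3 probes were -0.69, -0.53 and -0.37 in order of brightness, and none of them reached 2-fold. Fetal means stayed between -0.11 and 0.01 over the 3 probes as reported.

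The carrier Slc16a6 had intensities of 1338 and 1359 in food-deprived mothers, against 2882 and 2649 in control mothers. In fetuses the values were 2102 and 2533 in the food-deprived pool, against 2464 and 2315 in the control pool. The maternal pools lay far apart compared with the distance between arrays, while the fetal pools overlapped. The maternal log2 ratios were -1.11 and -0.96, and 3.26% of measured genes changed as much. The fetal ratios were -0.23 and 0.13. Slc16a6 lay just past the 2-fold line: the call was lost on the second array alone, with the mean over its probes (-0.63) and under median centring instead of loess, where the mean stayed at -1.06 but the arrays were at 0.16 and -2.29.

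The second Slc16a6 probe was dim. Its intensities were 106 and 124 in food-deprived mothers, against 132 and 136 in control mothers, and on the second array the food-deprived signal was not well above background. In fetuses it had 119 and 109 in the food-deprived pool, against 108 and 114 in the control pool. Its log2 ratios were -0.32 and -0.13 in the mother and 0.14 and -0.07 in the fetus. In general, the offset of 50 added in background correction shrinks ratios at such intensities. With the scanner software's ratios the same probe stood at -1.05 and -1.36 in the mother, beside -1.11 and -1.08 at the brightest probe. In the fetus those ratios were 0.44 and -0.29 at the second probe and -0.19 and 0.09 at the brightest. The gap between the Slc16a6 probes in the mother (second minus brightest) was 0.81 as reported and with median centring. It was 0.70 with an offset of 16, 0.72 with the local background of stained spots replaced and -0.11 with the scanner software's values. What made the gap was not tested. The level of the second probe in mothers over fetuses did not follow the brightest one with the scanner software's values: 1.18 against 0.20 in control pools.

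Beside the fall of Slc16a6, 3 of 13 Kupffer cell and macrophage markers fell in the mother (Adgre1, Cd5l and Folr2, with means from -1.13 to -1.03) and none rose. Their median was -0.56. Their summed intensity was 19387 and 18722 in food-deprived mothers, against 31944 and 29706 in control mothers, and all 13 were well above background in every pool. Over all measured maternal genes 1.93% were called lower. Single markers of other lists fell too. Ttr was 1 of 11 hepatocyte markers (-1.83), in a list with a median of 0.14 and 7 above 0. Col3a1 was 1 of 11 markers of stellate cells and fibroblasts (-1.57, list median -0.21). Ly6c1 was 1 of 7 measured markers of granulocytes and monocytes (-1.51, list median -0.09). Of 12 endothelial markers only Lyve1 rose (1.01), while the list median was -0.17 and 2 of the 12 lay above 0. The part of any of these cell types in the Slc16a6 value was not tested. In such bulk RNA, fewer cells of a type and less RNA per cell cannot be told apart.

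Slc16a7 had intensities of 3051 and 2797 in food-deprived mothers, against 2266 and 2079 in control mothers. In fetuses the values were 1167 and 1238 in the food-deprived pool, against 819 and 867 in the control pool. No 2 pools overlapped. The log2 ratios were 0.43 and 0.43 in the mother and 0.51 and 0.51 in the fetus, the closest match between arrays among the 6 genes. The fetal ratio was 1.43-fold, a size that 3.75% of fetal genes reached, and the maternal one was 1.35-fold, reached by 16.5% of maternal genes. Slc16a7 did not pass the rule in either. The response of the mother minus that of the fetus was -0.08 and -0.09.

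The second Slc16a7 probe was dim, with 160 and 147 in food-deprived mothers, against 138 and 137 in control mothers. In fetuses it had 118 and 113 in the food-deprived pool, against 111 and 104 in the control pool. Its pools lay in the same order as at the brightest probe, with log2 ratios of 0.21 and 0.09 in the mother and 0.09 and 0.11 in the fetus. With the scanner software's ratios it stood at 0.62 and 0.64 in the mother and at 0.67 and 0.63 in the fetus, beside 0.50 and 0.45, and 0.59 and 0.51, at the brightest probe. The dimmest probe was not well above background on both arrays in any pool and gave no measurement.

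Slc16a1 had intensities of 5469 and 7018 in food-deprived mothers, against 4817 and 4923 in control mothers. In fetuses the values were 6700 and 5947 in the food-deprived pool, against 8548 and 6454 in the control pool. The maternal pools did not overlap. The fetal pools overlapped across arrays, though the food-deprived value was the lower one on each array. The maternal log2 ratios were 0.18 and 0.51 (mean 0.35) and the fetal ones -0.35 and -0.12 (mean -0.23). The second probe gave 0.25 and 0.36 in the mother and -0.34 and -0.03 in the fetus. The dimmest, between 214 and 265 in all pools, gave -0.13 and 0.15 in the mother and 0.00 and 0.25 in the fetus, so it did not show the opposite signs of the other probes.

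Beside the fetal values of Slc16a1, all 17 erythroid markers lay below 0 in the fetus (median -0.29, none called). Their summed intensity was 99624 and 96693 in food-deprived fetuses, against 127662 and 108091 in control fetuses. With median centring in place of loess, 7 of the 17 lay above 0 (median -0.07) while the median of all genes moved to 0.10, and the fetal mean of Slc16a1 became 0.03. The part of erythroid cells in the fetal value of Slc16a1 was not tested.

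**Figure D2:**
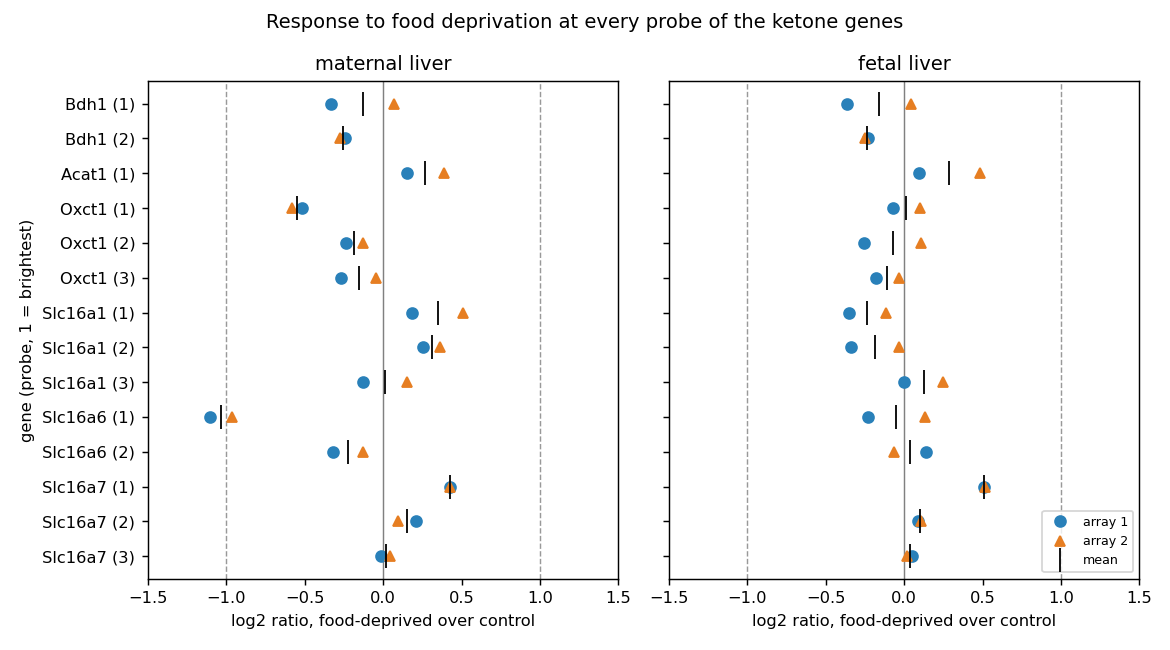
Log2 ratio of food-deprived over control liver at each of the 14 probes in mothers (left) and fetuses (right), with circles for the first array, triangles for the second, a bar for the mean and dashed lines at 2-fold. The brightest Slc16a6 probe in mothers is the only one at the 2-fold line, and the brightest and second Slc16a1 probes lie right of 0 in mothers and left of 0 in fetuses.

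When the maternal response was set against the fetal one on arrays of equal dye orientation, none of the 6 genes was called, where the rule called 3.05% of 15144 genes (1.25% higher and 1.8% lower in the mother). Slc16a6 came nearest, with -0.88 on the first arrays and -1.09 on the second (mean -0.99, 1.98-fold), and 3.20% of genes differed as much. It did pass with an offset of 16 in background correction and with the scanner software's ratios, and the difference lay between -1.23 and -0.62 over all settings tried. Slc16a1 differed by 0.53 and 0.63 and Oxct1 by -0.44 and -0.69. Bdh1, Acat1 and Slc16a7 had differences between -0.10 and 0.06 on either pair of arrays. The difference between the arrays of a comparison was shared between mother and fetus across genes (r = 0.66 over 15030 genes, as a description of arrays that share dyes and a slide), and the shared part of it cancels in this difference.

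Maternal and fetal RNA were never on the same array, so levels between them rest on the normalisation between arrays. In control pools 2 of the 6 genes were called, Slc16a7 higher and Oxct1 lower in the mother, where the rule called 19.7% of 17509 measured genes (9.05% higher and 10.6% lower). In food-deprived pools the same genes were called, against 18.5% of 17323 (7.76% higher and 10.7% lower). The median of the 6 genes was -0.24 in food-deprived pools and -0.25 in control pools, with 0.02 over all genes in each.

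Oxct1 was 7.75-fold lower in food-deprived mothers than in food-deprived fetuses (log2 -2.98 and -2.93) and 5.24-fold lower in control mothers than in control fetuses (-2.54 and -2.24). The second and dimmest probes passed the rule in the same direction, with means of -1.65 and -1.81 in food-deprived pools and -1.54 and -1.76 in control pools. With the scanner software's signals the control means of the 3 probes were -2.71, -2.24 and -2.66. The gene was called in control pools under all 11 other settings tried, with values between -2.82 and -1.90, the latter with the mean over its probes. Settings that changed only the filter on dim probes or the outlier flags could hardly move the bright, unflagged probe. Over the 4 conditions the order at the brightest Oxct1 probe was food-deprived mothers, control mothers and then both fetal pools, whose values overlapped.

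Slc16a7 was 2.43-fold higher in food-deprived mothers than in food-deprived fetuses (1.39 and 1.18) and 2.58-fold higher in control mothers than in control fetuses (1.47 and 1.26). Differences at least this large were found in 12.5% of genes in control pools. The second probe gave 0.41 in food-deprived and 0.36 in control pools, and 1.40 in control pools with the scanner software's signals. The control call was lost with the mean over probes (0.86) and without normalisation between the arrays. From low to high the pools were control fetuses, food-deprived fetuses, control mothers and food-deprived mothers.

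The other 4 genes were within 2-fold. Slc16a6 lay at -0.77 in food-deprived pools (-0.65 and -0.90) and at 0.21 in control pools (0.23 and 0.19), so that mothers were below fetuses in the first and near them in the second. Slc16a1 lay at -0.03 in food-deprived pools (-0.29 and 0.24) and at -0.61 in control pools (-0.83 and -0.39), with -0.09 and -0.58 at its second probe. Acat1 lay at -0.37 and -0.35, and its arrays were wide apart (-0.63 and -0.07 in control pools). Bdh1 lay at -0.11 and -0.14 at its brightest probe, and at 0.43 and 0.45 at the second, so that the probes disagreed in sign.

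The same level comparison held large differences in blood cell markers. All 17 erythroid markers were lower in control mothers than in control fetuses, with a summed intensity of 3447 and 3478 in control mothers, against 127662 and 108091 in control fetuses. Among them Sptb, Epb42, Kel, Ermap, Rhag, Rhd and Hemgn were not well above background on either array in control mothers. Of the granulocyte markers 7 of 8 were lower, as were 6 of 7 megakaryocyte markers, while 1 of 11 hepatocyte markers was higher (Hnf4a) and none was lower, with a median of 0.16. Of 6 markers of fetal hepatocytes 5 were lower in control mothers than in control fetuses, among them Afp, the fetal plasma protein alpha-fetoprotein, with mean intensities of 398 in control mothers and 47543 in control fetuses. The summed intensity of all 6 was 42613 and 49587 in control mothers, against 163444 and 183934 in control fetuses. Most of the maternal sum is Ahsg, the marker that was not lower, which is also in the hepatocyte list. Its means were 45085 in control mothers and 32738 in control fetuses. H19, Igf2 and Gpc3 had means of 142, 133 and 120 in control mothers, and Dlk1 was not well above background there. The part of blood cells, or of the stage of the hepatocytes, in the Oxct1 and Slc16a7 levels was not tested.

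**Figure D3:**
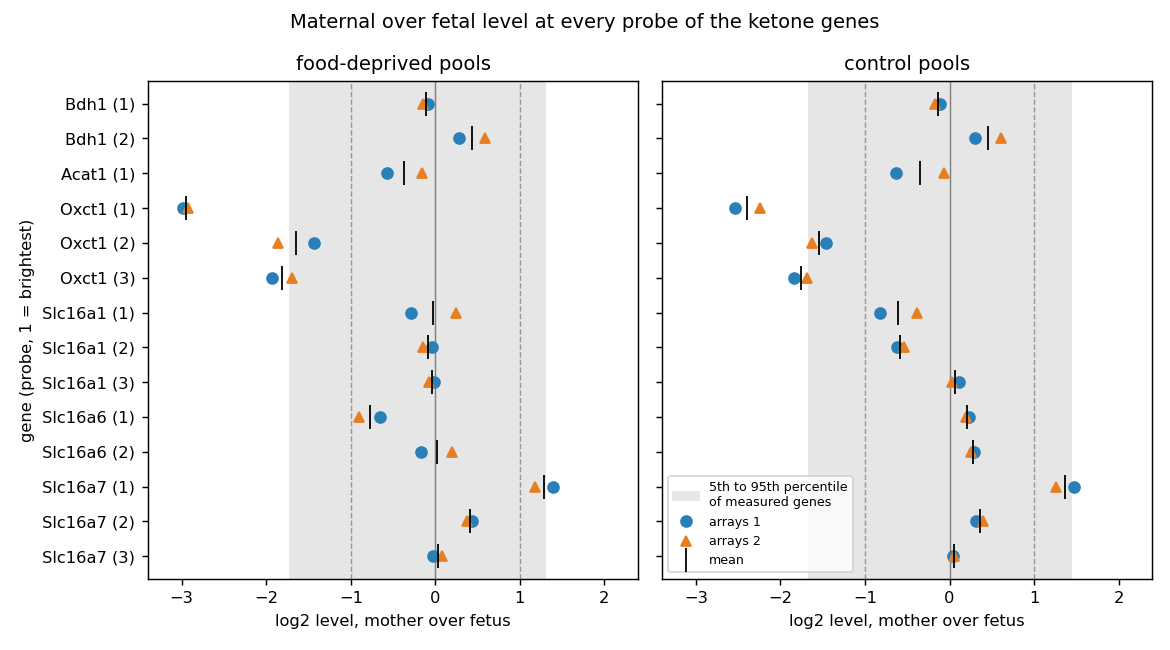
Log2 level in mothers over fetuses at each of the 14 probes, in food-deprived pools (left) and control pools (right), with the 5th to 95th percentile of measured genes shaded and dashed lines at 2-fold. All 3 Oxct1 probes lie left of the 2-fold line in both panels, and the brightest Slc16a7 probe lies right of it.

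Several other enzymes of ketone body and acetyl-CoA chemistry passed the rule. Of 9 measured in the mother 5 fell and none rose, with a median of -1.41. They were Acat2 and Acat3, near-identical genes for the cytosolic thiolase whose probes may read each other's transcripts (-2.04 and -1.98), Bdh2, a cytosolic dehydrogenase (-2.00), Hmgcs1, the cytosolic HMG-CoA synthase of sterol synthesis (-1.54), and Acss2, the cytosolic acetyl-CoA synthetase (-1.41). Of 10 in the fetus 3 fell and none rose, with a median of -0.16: Acss2 (-1.61), Aacs, the cytosolic acetoacetyl-CoA synthetase (-1.57), and Hmgcs1 (-1.41). The genes of this list that fell act in the cytosol, as do most of its measured genes, so no pattern by compartment can be read from them. With the mean over probes 4 fell in the mother and 1 in the fetus, and with median centring 2 fell in each. In control pools Bdh2 was 15.5-fold higher in the mother than in the fetus.

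Of 11 other measured monocarboxylate carriers and their partner proteins, none was called in the fetus. In control pools the family carriers Slc16a11 (2.94) and Slc16a5 (2.25) were higher in the mother, and 2 of the 11 were lower. Those were Slc16a3, the lactate exporter MCT4 (-4.04, with 150 and 2468 in mean intensity in control mothers and control fetuses), and Emb, which encodes embigin, a partner protein of such carriers (-3.29). The medians of the list were -0.02 in the mother and -0.05 in the fetus.

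In the list of genes that bring fatty acids into mitochondria and oxidise them, 2 of 18 rose in the mother and none fell, with a median of 0.91 and 15 of 18 above 0. Cpt1a, which admits fatty acids to mitochondria, rose (1.48 and 1.16), as did Etfdh, which passes their electrons to the respiratory chain (1.29 and 0.95). In the fetus none of 17 was called, but Cpt1a was just short of 2-fold (1.20 and 0.78, mean 0.99). Etfdh lay at 0.69 in the fetus. The fetal median was 0.27, and 16 of the 17 lay above 0. The exception was Acacb, the carboxylase whose product inhibits that entry step, at -0.77. In the mother Acacb lay above 0 (0.76 and 1.05) and is counted among the 15. Of 13 regulators of ketone body synthesis, Fgf21, a fasting hormone of the liver, rose in the mother (2.58 and 2.71) and none was called in the fetus (median 0.08 in the mother and 0.17 in the fetus). The highest fetal value among them was that of Ppargc1a (0.99, with 0.88 in the mother), short of the rule in both.

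**Figure D4:**
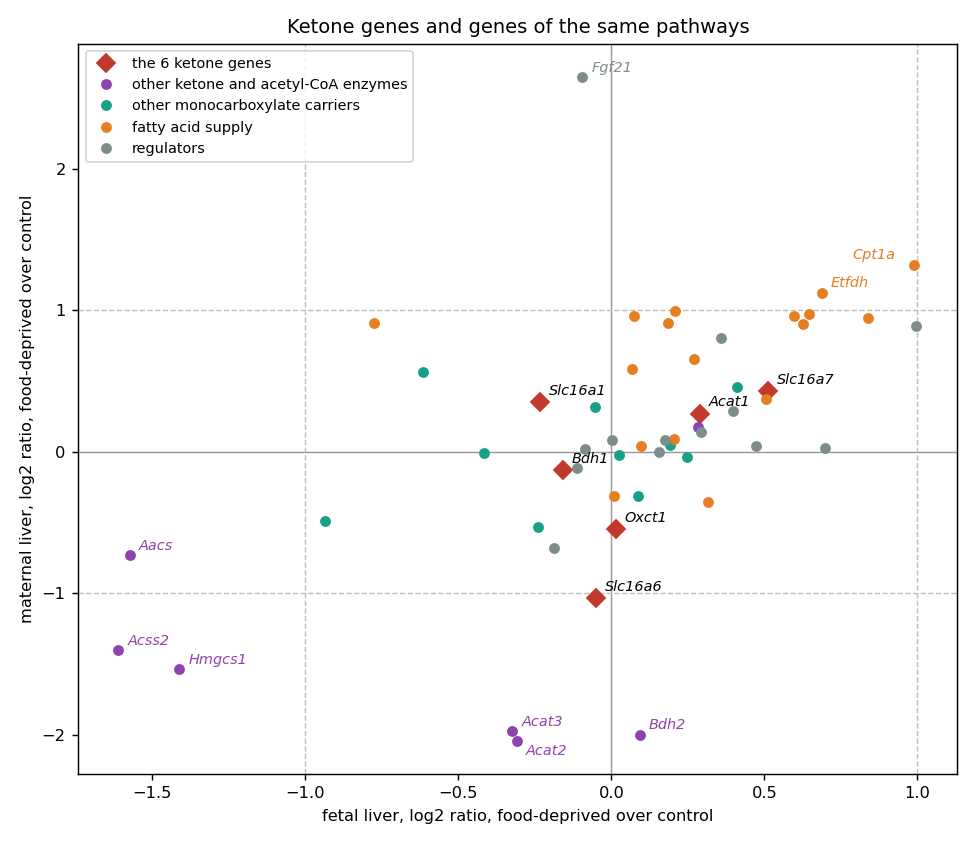
Log2 ratio of food-deprived over control in mothers (vertical) against fetuses (horizontal) for the 6 ketone genes (diamonds) and other genes of the 4 pathway lists measured in both (dots), with dashed lines at 2-fold and names for genes called in either. The 6 genes lie between -1.03 and 0.43 in mothers and between -0.23 and 0.51 in fetuses, while Fgf21 lies at 2.65 and Bdh2 at -2.00 in mothers, with -0.10 and 0.09 in fetuses.

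The genes most like the called ones were sought over the 8 channel levels, by the root mean square difference in log2 level after each gene was centred within each dye, among 13837 genes. Nearest to Slc16a7 was Mlycd (0.04), the malonyl-CoA decarboxylase, a member of the fatty acid list, with responses of 0.37 in the mother and 0.50 in the fetus and a control level of 1.44. Tfb2m (0.07) and Erbb3 (0.08) followed. Nearest to Slc16a6 were Prnp (0.07), the prion protein gene, Rdm1 (0.08) and N4bp3 (0.08), with maternal responses of -0.98 for Prnp and -0.84 for N4bp3. Nearest to Oxct1 were Ube2l6 (0.08), Plcg2 (0.09) and Gmnn (0.10), with control levels from -2.50 to -2.38. The 8 levels come from 4 conditions, each on 2 arrays. These genes were picked by closeness in those levels, so their similar responses and control levels follow from the choice.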

How the data were processed

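Liver RNA pools of food-deprived and control mothers and fetuses were measured on 4 two-colour arrays. Per the file headers, the deposited files of each array give linear intensity values of each spot and its local background in both dyes, with processed intensity values and a log10 ratio of red over green made by the scanner software (Agilent Feature Extraction 9.5.1.1 per the file headers, 9.5.3.1 per the submitters' processing notes). The deposited series table is a linear red over green ratio carrying a minus sign on the arrays with food-deprived RNA in Cy5. Its columns, with medians of -0.92, 0.94, -0.88 and 0.88, matched the scanner ratios at r of at least 0.9999, so the sign was dropped. Its centring is that of the scanner software, and what the sign means stays unknown.

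Intensities were corrected with normexp (offset 50), normalised within arrays by loess and, for levels, between arrays by Aquantile in limma 3.58.1 (R 4.3.3). The offset shrinks the ratios of dim probes. Ratios were turned to food-deprived over control, outlier-flagged spots (215 to 257 per array) and control spots were left out, and spots of a probe were averaged. A probe was measured when well above background on both arrays in either pool. Of 41174 probes, 22951 were named by accession through RefSeq GRCm38.p6, 6659 by current symbol and 3109 by an older name, and 8455 kept the file's name. On the second array of each comparison, 6 fetal and 4 maternal spots with a stained local background raised the amount that normexp added. The steps were tested on simulated data. The 6 genes, the 4 pathway lists and the marker lists were chosen with earlier results of these data known. Beyond the 6 genes with every probe, the rule named list genes called in the mother or the fetus and the 3 genes nearest in pattern to each called member. The marker genes and list genes called only in levels or differences were added after their values were seen, and some list genes are not reported here. The number of arrays limits the precision.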

Additional observations from a re-analysis of the deposited data

Results flagged for a closer look

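The brightest and the second probe of Slc16a1 lay above 0 on both maternal arrays and below 0 on both fetal arrays. The maternal minus fetal response was 0.58 at the brightest probe and 0.49 at the second. The dimmest probe did not show this, and neither difference reached 2-fold. On the second fetal array the brightest and second probes stood at -0.12 and -0.03, smaller than the fetal SD per array of 0.15. With median centring their fetal means became 0.03 and 0.06, so their fetal direction is not settled.

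The same opposite directions on every array were found for several genes of the pathway lists, of which 4 differed by at least 2-fold. The maternal minus fetal response was 2.74 for Fgf21, whose fetal intensities were low (means of 124 in food-deprived and 132 in control fetuses). It was 1.68 for Acacb and 1.18 for Slc16a10, an aromatic amino acid transporter, which had responses of 0.56 in the mother and -0.62 in the fetus. It was -2.09 for Bdh2, which stood at -2.00 in the mother and 0.09 in the fetus. The fetal intensities of Bdh2 were low as well (means of 183 in food-deprived and 171 in control fetuses). For Fgf21 and Bdh2 the fetal means were smaller than the fetal SD per array of 0.15, so their fetal direction is not settled. The difference between mother and fetus was not tested for any of these, since the arrays of a comparison were taken as 1 replicate.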

How the results depend on the processing

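No paired analysis was possible because the replicate number of an array goes with its dye orientation and no test was made. No value that was called changed sign under any setting tried. Of the values of the 6 genes under other settings, 224 moved by less than the spread between arrays and 40 by more. The first count includes settings that changed only the filter on dim probes or the outlier flags. Those could hardly move the brightest probes, which were unflagged and well above background. The maternal count of 1 called gene, Slc16a6, became 0 with median centring, 0 with the mean over probes, and 0 to 1 on single arrays. The count for the maternal minus fetal difference, 0 as reported, became 1 (Slc16a6) with an offset of 16, with the scanner software's ratios, with median centring and with the series table, and 0 to 1 on single arrays. The count of 2 for control levels became 1 (Oxct1) with the mean over probes and 1 without normalisation between arrays, which moved the median of all genes to -0.17. Over all genes, the fetal count of 132 became 395 with the scanner software's ratios and 396 with the series table, and the maternal count of 549 became 1442, 1446 and, with median centring, 129. Of the fetal calls 63.6% were higher as reported and 75.6% with median centring. For the difference the share was 40.9% and 15.8%, and for control levels 46.0% as reported and 24.6% without normalisation between arrays. The causes were not tested. Dim probes limit what can be said of the second Slc16a6 probe and of the second and dimmest Slc16a7 probes.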
